A study of Mus musculus with 64 samples.

Results

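The Ikaros family is a set of 5 zinc finger transcription factor genes, Ikzf1 (Ikaros), Ikzf2 (Helios), Ikzf3 (Aiolos), Ikzf4 (Eos) and Ikzf5 (Pegasus), and their transposon insertions were followed here in mouse B cell lymphomas and in tail tissue. Insertions were selected by the gene name that the table gives for each insertion. This left 246 family insertions among 299625 kept insertions of 64 samples, of which 118 lay in Ikzf1, 89 in Ikzf3, 38 in Ikzf2, 1 in Ikzf4 and 0 in Ikzf5. The family was chosen with the count of Ikzf1 insertions in PiggyBac tumours already known, so the comparison of that count with its expectation and with tails is given below as a description without a test.

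Ikaros proteins bind DNA through a group of zinc fingers near the N-terminus and pair with each other through a further group of fingers at the C-terminus. Forms of Ikaros that lack DNA-binding fingers but keep the C-terminal ones can block the full-length protein. In lymphoid cells the family recruits the NuRD chromatin remodelling complex. IKZF1 is lost or altered in many human B cell leukaemias, and IKZF1 and IKZF3 proteins are the targets that lenalidomide directs to the cereblon ubiquitin ligase.

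The samples came from mice that carry an ITP transposon and a transposase knocked into Rosa26, either PiggyBac (PB), which inserts at the sequence TTAA, or Sleeping Beauty (SB), which inserts at TA. There were 30 diffuse large B cell lymphomas (DLBCL) and 12 tails of PB mice, and 11 DLBCL and 11 tails of SB mice. The transposase was constitutive and so active in every tissue. The SB mice were bred on a Blm m3/m3 background with ITP1-C or ITP2-M transposons, while for the PB mice only the ITP line and the transposase were taken from the sources used here. All mice were of mixed strain background and their ages were not given. Junctions of transposon and genome were amplified from genomic DNA and sequenced, so that each insertion has a position, a strand and a count of reads. DNA carries no marker genes of expression, and the labelled tissues could not be checked. A PB tumour had 757 to 10800 kept insertions (median 4283.5), a PB tail 2035 to 7362, an SB tumour 760 to 8786 and an SB tail 2537 to 7148. Reads per sample ran from 55502 to 369482 with 1 exception, PB tumour 3, which had 5721832.

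Positions are those of mm10. Ikzf1 lies on the plus strand of chromosome 11 from 11685925 to 11772926, and Ikzf3 lies on the minus strand of the same chromosome, from 98464693 to 98546031. Ikzf2 is on chromosome 1 (69531207 to 69685960), Ikzf4 on chromosome 10 (128630843 to 128645993) and Ikzf5 on chromosome 7 (131388649 to 131410478), all of them on the minus strand. As targets for PB the genes offer 444 TTAA sites in Ikzf1, 1200 in Ikzf2, 470 in Ikzf3, 41 in Ikzf4 and 154 in Ikzf5. In Ikzf1, Ikzf2 and Ikzf3 alike, exon 4 of the reference transcript encodes the first zinc finger, exon 5 fingers 2 and 3, exon 6 finger 4, and exon 8 the C-terminal fingers 5 and 6.

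The insertion sites below are examples from the introns described later, picked after their values were seen among the 12 sites hit in 3 or 4 PB tumours and the sites of the 3 insertions that ranked highest by reads in their PB tumours. Each is given in the mm10 plus strand, 5′ to 3′, with 10 bases on each side of the target site, whose TTAA is in capitals.
Ikzf1 intron 1, chr11:11692619-11692642: tagatgctccTTAAtaaggctggg
Ikzf1 intron 1, chr11:11699947-11699970: atgctgttttTTAAaggatcaagg
Ikzf1 intron 3, chr11:11725442-11725465: accctgctctTTAAagagtgtgtg
Ikzf1 intron 4, chr11:11751508-11751531: caggctttttTTAAaatctacctt
Ikzf1 intron 4, chr11:11751566-11751589: ttttctttttTTAAagaagatatt
Ikzf3 intron 7, chr11:98470604-98470627: ataaaccttcTTAAaggcggctaa
Ikzf3 intron 7, chr11:98475368-98475391: agtttttttcTTAAagacagggtt
Ikzf3 intron 7, chr11:98476676-98476699: gagcagagttTTAAacaccaactc
The intron 3 site of Ikzf1 and the second of the Ikzf3 sites were each hit in 4 PB tumours. The second Ikzf1 site and the first Ikzf3 site carried the most read-rich family insertions of the series.

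In PB tumours, insertions were frequent in Ikzf1 and Ikzf3 and sparse in the other members. Ikzf1 had 108 insertions in 23 of 30 PB tumours, at 82 different TTAA sites or 18.5% of those in the gene. Per PB tumour the lowest number of Ikzf1 insertions was 0, the median 2.5 and the highest 12, in PB tumours 3 and 15. In the 12 PB tails Ikzf1 had 3 insertions, 2 of them in PB tail 7 and 1 in PB tail 9, and none in the other 10. Per 1000 kept insertions this was 0.600 ± 0.527 (SD, n = 30) in PB tumours and 0.0862 ± 0.227 (SD, n = 12) in PB tails, a log2 fold change of 2.97 in the edgeR fit. The groups overlapped, since 7 PB tumours had no Ikzf1 insertion and PB tail 7, at 0.762 per 1000, lay above the PB tumour median of 0.522. Without that tail the log2 fold change was 3.87. These 7 had 757 to 3952 kept insertions, against 3360 to 10800 in the 23 that were hit, so the tumours without a hit were also those with few insertions.

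Ikzf3, whose product Aiolos is found in maturing and activated B cells, had 82 insertions in 23 of 30 PB tumours and 1 insertion in 12 PB tails. Per PB tumour the lowest number was 0, the median 2 and the highest 10, in PB tumours 3 and 8. The single tail insertion was in PB tail 4 and had 7 reads. The mean rate was 0.446 ± 0.372 (SD, n = 30) per 1000 in PB tumours and 0.0113 ± 0.0392 (SD, n = 12) in PB tails. Ikzf3 was higher in PB tumours by 3.53 on the log2 scale (edgeR quasi-likelihood test, adjusted p = 4.36e-05 over 3306 genes). The family members were chosen with earlier results of these data known, so this p is not that of an independent test. Of all genes tested, 2.15% were called higher in PB tumours and 4.45% in either direction. The rank of Ikzf3 by p was 12 of 3306. Without PB tail 4, the only PB tail hit, the log2 fold change was 4.36.

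Ikzf2, better known from regulatory T cells, is the largest target of the family for PB but did not share the difference. It had 21 insertions in 17 of 30 PB tumours, at most 3 in 1 tumour, and 7 insertions in 4 of 12 PB tails. The rates were 0.183 ± 0.271 (SD, n = 30) and 0.113 ± 0.187 (SD, n = 12) per 1000, and the fitted log2 fold change was -0.07 (edgeR, adjusted p = 0.952), a sign that turned to 0.15 with TMM scaling and 0.21 with DESeq2. The median gene was at 0.20, and at 0.40 under both of these scalings. Ikzf4 had 1 insertion of 16 reads in PB tumour 19, and Ikzf5 had none under its name. Both stayed below the minimum of 10 insertions and were not tested. Of Ikzf2 and Ikzf3, the members tested here beside Ikzf1, 1 was thus called.

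**Figure D1:**
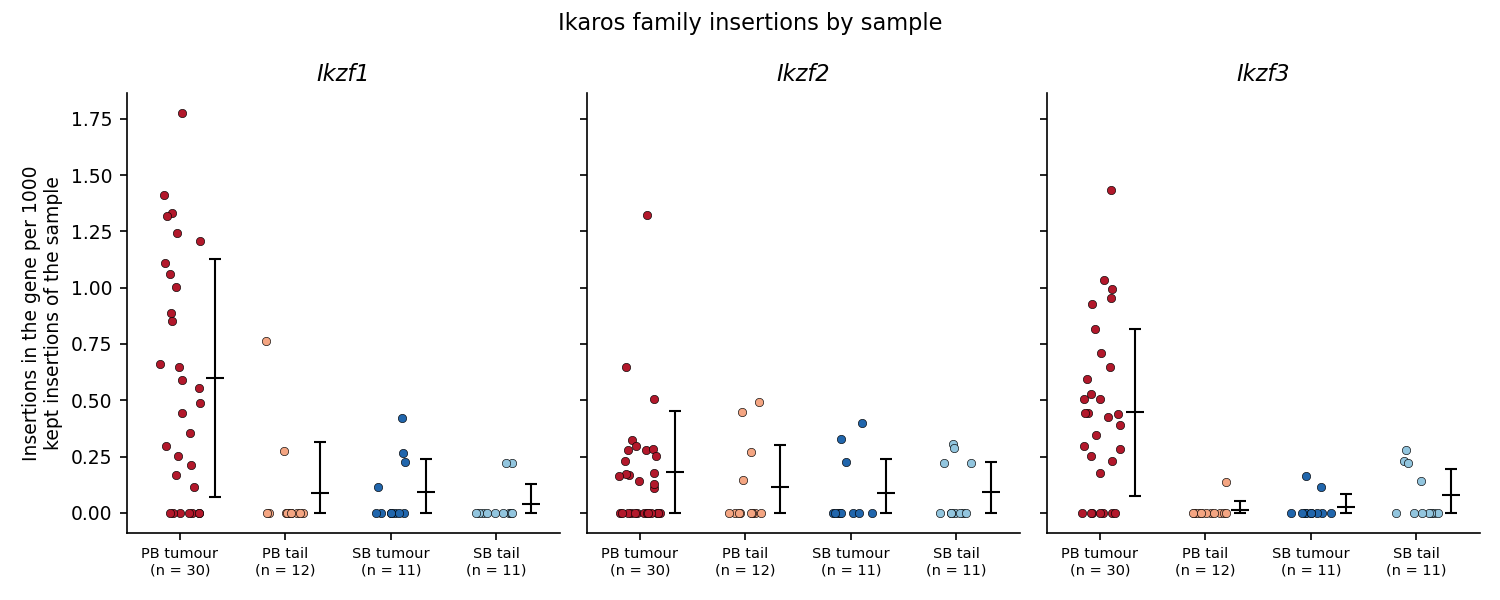
Insertions in Ikzf1, Ikzf2 and Ikzf3 per 1000 kept insertions of each sample (y axis) in the 4 groups (x axis). Each point is 1 sample, the dash is the mean and the bar the SD, cut at 0 where it would fall below. PB tumours reached 1.77 in Ikzf1 and 1.43 in Ikzf3, while the highest PB tails were at 0.762 in Ikzf1 and 0.136 in Ikzf3.

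Against the number of TTAA sites, the same order appeared. The share of chromosome 11 sites that lie in Ikzf1 gave an expectation of 7.23 insertions in PB tumours, and the 108 observed were 14.9 times as many. For Ikzf3 the observed 82 were 10.7 times the expected 7.65. For Ikzf2 the observed 21 were 1.5 times the expected 14. For Ikzf5 0 were listed under its name, where the sites of its RefSeq gene body gave an expectation of 1.62. That gene body held 3 insertions of PB tumours listed under Fgfr2, so the 0 does not show a lack of insertions there. Among 10260 genes with an expectation of at least 1, the ratios of Ikzf1 and Ikzf3 ranked 18 and 39 from the top, and the median gene had a ratio of 0.966. In PB tails the ratios were 1.64 for Ikzf1, 0.517 for Ikzf3 and 1.68 for Ikzf2. PB is known to insert more often in the open chromatin of active genes, and tumour and tail differ in their cell type, so a higher rate of insertion in B cells and selection of cells with such insertions cannot be told apart in this comparison.

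The sample names come in 2 written forms, with the line prefix joined to the next number or separated from it, which may mark a batch. Within joined names (22 PB tumours, 5 PB tails) the log2 fold change of Ikzf3 was 3.0 and fell just short of the call (edgeR, adjusted p = 0.0605). Within separated names (8 PB tumours, 7 PB tails) it was 3.84 and was called (edgeR, adjusted p = 0.0120). For Ikzf1 the 2 fold changes were 4.99 and 1.94 on the log2 scale, the 5 joined PB tails having 0 Ikzf1 insertions. Without the very deep PB tumour 3 the log2 fold changes of Ikzf1 and Ikzf3 were 2.90 and 3.44.

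Most PB tumours had insertions in both Ikzf1 and Ikzf3. There were 21 PB tumours with insertions in both genes, 2 with Ikzf1 alone, 2 with Ikzf3 alone and 5 with neither. With 23 of 30 tumours hit in each gene, the product of both shares would give 17.6 tumours with both. This product takes every tumour as equally likely to be hit. Tumours without a hit had fewer kept insertions, with a median of 3085 against 5796 for Ikzf1 and 3088 against 5673 for Ikzf3. Shared depth was not separated from these joint hits. Rates per 1000 insertions rose together over the 30 PB tumours with Pearson's r = 0.428 (permutation p = 0.0188, adjusted p = 0.0338 over 3 pairs) and Spearman's rho = 0.483 (permutation p = 0.00743, adjusted p = 0.0223). Leaving out the 2 tumours farthest from the median Ikzf1 rate gave r = 0.539. Within joined names r was 0.460 (22 tumours, permutation p = 0.0313), and within separated names it was 0.197 (8 tumours, exact permutation p = 0.645). With only 8 tumours the latter does not show whether the relation held there. The relation was not particular to the family, since genes outside it had a higher rho with Ikzf1, from 0.581 to 0.716 in the closest, named below. Ikzf1 and Ikzf2 went in opposite directions with r = -0.398 (permutation p = 0.0225, adjusted p = 0.0338) and rho = -0.385 (permutation p = 0.0375, adjusted p = 0.0563). Without the 2 farthest tumours that r was -0.362. It was -0.393 (permutation p = 0.0507) and -0.386 (exact permutation p = 0.342) within joined and separated names. Of the 17 PB tumours hit in Ikzf2, 14 had only 1 insertion there, so their Ikzf2 rate is higher the fewer insertions the tumour has. The highest, 1.32 per 1000, was in PB tumour 13, with 757 kept insertions and 0 in Ikzf1. An effect of depth was thus not separated from this opposite direction. For Ikzf2 and Ikzf3 r was -0.197 (permutation p = 0.294, adjusted p = 0.294) and rho was -0.115 (permutation p = 0.544, adjusted p = 0.544). Without the 2 tumours farthest from the median Ikzf2 rate that r was -0.106, and within joined and separated names it was -0.294 and 0.394. Bulk DNA does not show whether 2 insertions of a tumour were in the same cells.

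The insertions were spread over all tumour sites with more than 1 PB sample. Mean Ikzf1 rates per 1000 were 0.722 in 9 mesenteric masses, 0.427 in 6 mesenteric lymph nodes, 0.575 in 6 spleens and 0.521 in 5 tumours labelled lymph node only. For Ikzf3 they were 0.414, 0.395, 0.290 and 0.703 in the same order. Single tumours ranged from 0 to 1.77 within the mesenteric masses for Ikzf1 and from 0 to 1.43 within the lymph nodes for Ikzf3, which is wider than the differences between sites.

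Within Ikzf1, insertions fell almost wholly in introns, with 107 of 108 in PB tumours against 95.9% of TTAA sites. The exception was an insertion in exon 7. Intron 1, which lies ahead of the start codon in exon 2, held 36 insertions of 15 PB tumours at 86 sites, or 41.9 insertions per 100 sites. RefSeq places a second transcript start of Ikzf1 within that intron, at 11690177, and 33 of the 36 insertions lay between it and exon 2, at 54.1 per 100 sites, against 12.0 per 100 sites ahead of it. Of the 33, 19 were on the gene strand and 14 on the opposite strand.

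Intron 3, the longest of Ikzf1, held 37 insertions of 18 PB tumours, or 22 per 100 sites. Intron 4, which separates the exon of finger 1 from that of fingers 2 and 3, held 14 insertions of 12 PB tumours in only 31 sites, or 45.2 per 100 sites. Of these 14, 3 were on the gene strand and 11 on the opposite strand. Intron 7 had 1 and 7 in the same order, and intron 5 went the other way with 3 and 0. Strand within single introns was not tested. Between the first and the last exon of the N-terminal fingers there were 17 Ikzf1 insertions in 13 PB tumours, and 14 insertions in 9 PB tumours lay behind them. Intron 2 was the least dense with 7.55 per 100 sites, and the last exon had 0 insertions at 16 sites.

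Ikzf3 had another layout. Its start codon is in exon 1, and only 1 of its 470 TTAA sites lies ahead of it. Intron 7, between exon 7 and exon 8 with the C-terminal fingers, held 26 insertions of 13 PB tumours in 37 sites. This was 70.3 per 100 sites, against 15.6 in intron 1 and 9.94 in intron 3, the long introns at the front of the gene. Exon 8 had 3 further insertions at 12 sites. Behind the exons of the N-terminal fingers there were 35 of the 82 insertions, or 42.7%, where 18.5% of the sites lie. Strand was mixed in intron 7, with 11 on the gene strand and 15 on the opposite strand. In Ikzf2 the long intron 3 held 15 of 21 insertions, or 71.4%, and 68.1% of the sites.

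**Figure D2:**
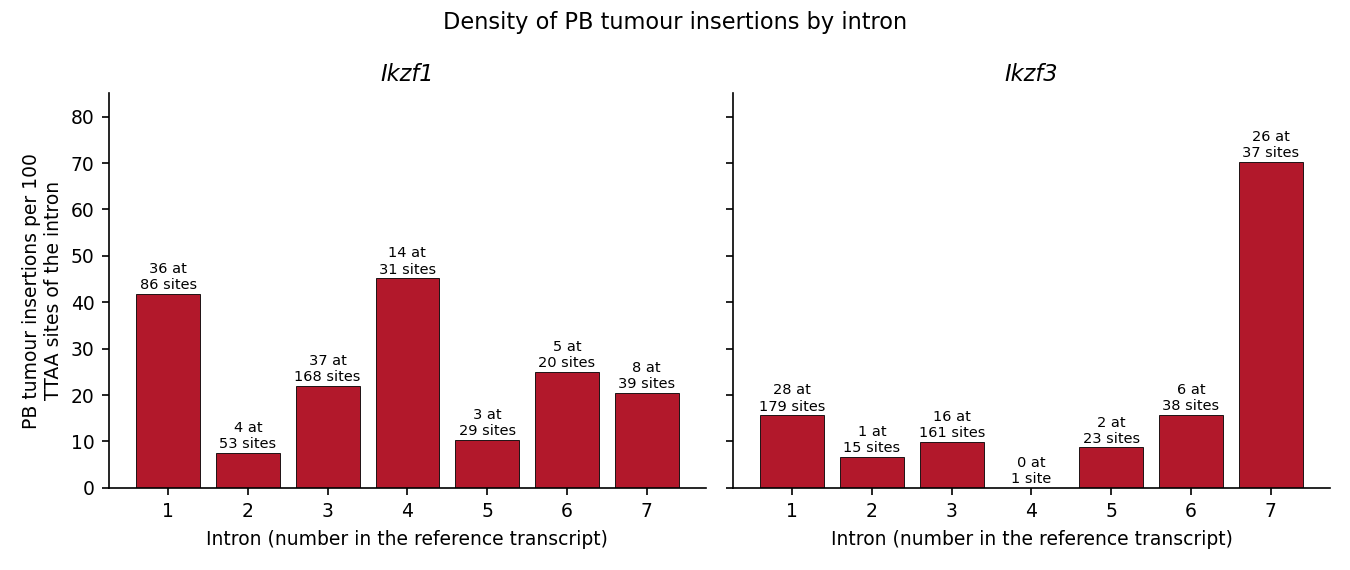
Insertions of PB tumours per 100 TTAA sites (y axis) in each intron of Ikzf1 and Ikzf3 (x axis), with the number of insertions and sites above each bar. Introns 1 and 4 of Ikzf1 (41.9 and 45.2) and intron 7 of Ikzf3 (70.3) stand above the rest.

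The same positions recurred in different PB mice. In Ikzf1, 43 of the 108 insertions of PB tumours (39.8%) were at a position hit in a further PB tumour, in Ikzf3 29 of 82 (35.4%) and in Ikzf2 0 of 21. Over all kept insertions of PB tumours the share was 7.57%. Over those in genes it was 9.0%. A gene that is hit often has more shared positions for that reason alone, and transfer of reads between libraries was not tested. At the Ikzf1 intron 3 site with 4 PB tumours all 4 insertions were on the gene strand, with 4 to 25 reads. At the second intron 4 site all 3 were on the opposite strand, with 3 to 19 reads. The Ikzf3 intron 7 site with 4 PB tumours had 1 insertion on the gene strand and 3 on the opposite strand. All remaining sites hit in 3 PB tumours also had insertions on both strands. Without any position found in more than 1 sample, an alternative added after the data were seen, the log2 fold changes were 2.66 for Ikzf1 and 2.94 for Ikzf3, the latter with an adjusted p = 0.00374 (edgeR).

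**Figure D3:**
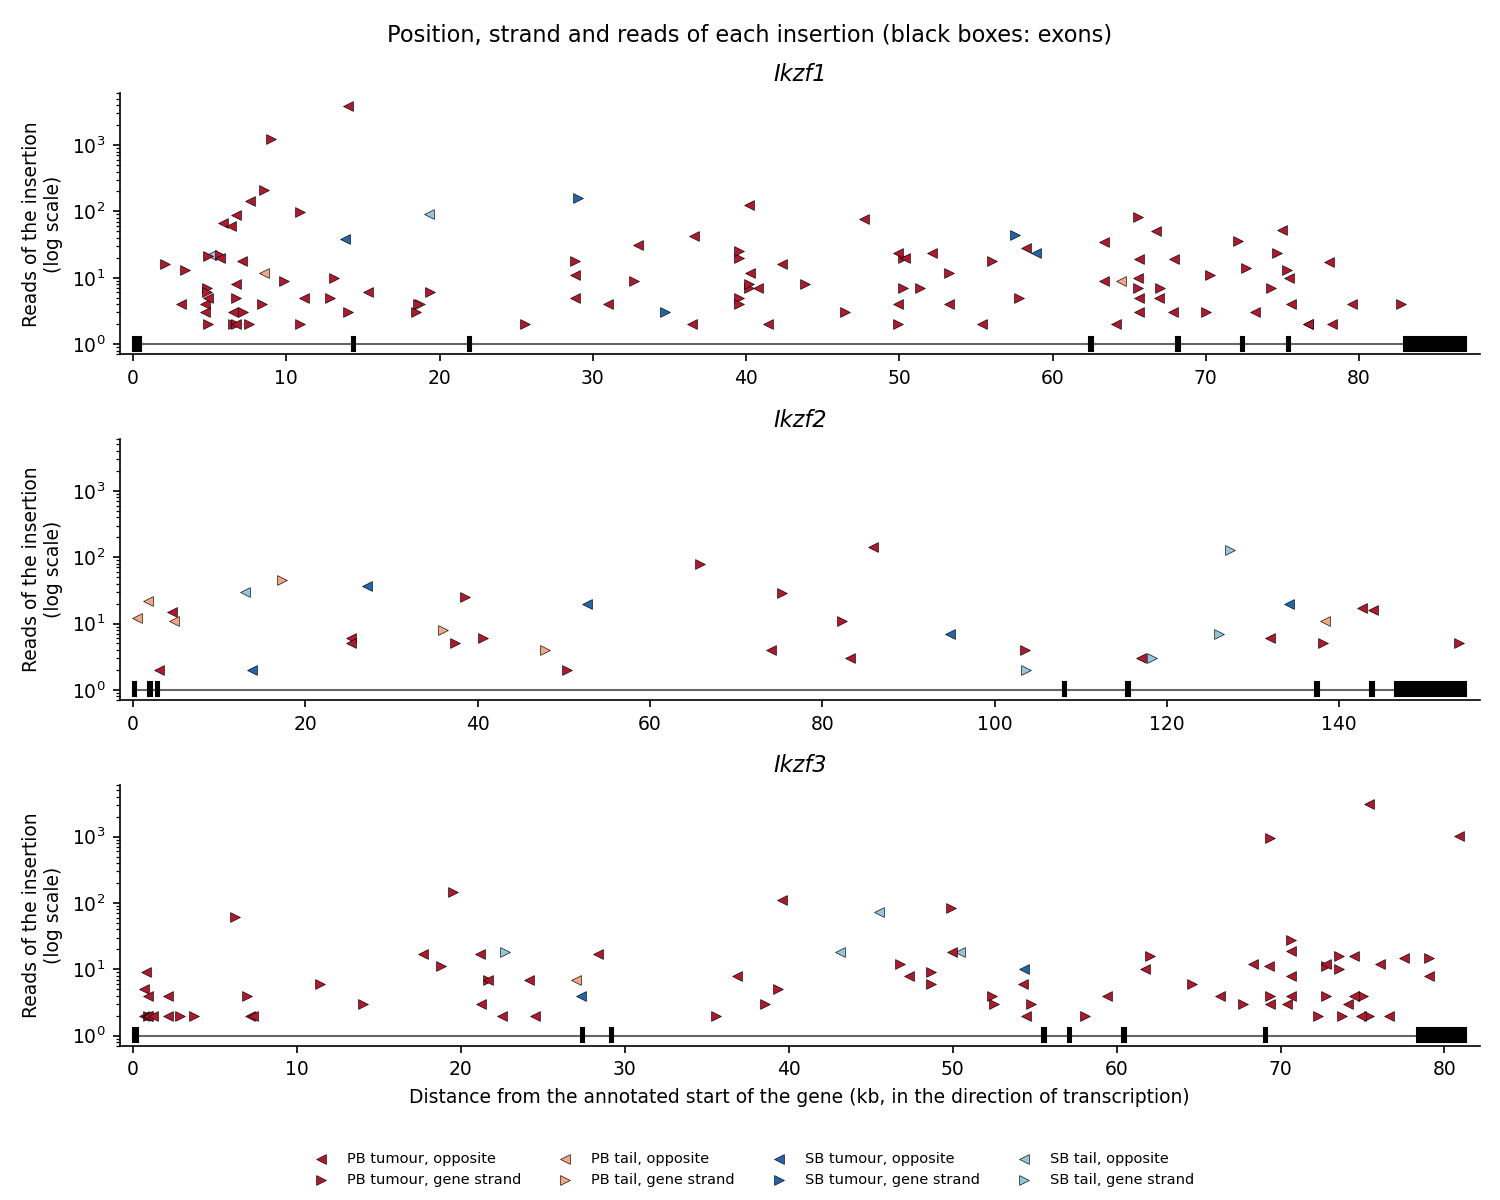
Each insertion in Ikzf1, Ikzf2 and Ikzf3 by distance from the annotated start in kb (x axis) and its reads on a log scale (y axis). Triangles point right for the gene strand and left for the opposite strand, colours mark the 4 groups, and black boxes are exons. The PB tumour insertions crowd in intron 1 of Ikzf1 and towards the end of Ikzf3.

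Over the whole gene no preference for a strand was detected. In PB tumours 53 Ikzf1 insertions were on the gene strand and 55 on the opposite strand, and in Ikzf3 36 and 46. With each tumour counted once, the share on the gene strand was 3.56 percentage points above 50% for Ikzf1 (SD 33.2, n = 23 PB tumours, two-sided sign-flip permutation p = 0.612, adjusted p = 1). It was -1.54 points from 50% for Ikzf3 (SD 32.1, n = 23 PB tumours, permutation p = 0.819, adjusted p = 1). Of 1870 genes 0 (0%) were called by this permutation test, with 74 at an unadjusted p below 0.05. Over all genes of a PB tumour, 48.2% ± 1.80 (SD, n = 30) of insertions were on the gene strand.

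Reads per insertion are used as a guide to how many cells of a sample carry it, though amplified reads are not molecules, and most family insertions had few. The median Ikzf1 insertion of a PB tumour had 7 reads, and 46 of 108 had 10 or more. The median was 5 reads in Ikzf3 and 6 in Ikzf2. When all insertions of a tumour were ranked by reads, Ikzf1 insertions lay on average 4.36 percentile points above the middle (SD 19.6, n = 23 PB tumours, two-sided sign-flip permutation p = 0.30, adjusted p = 0.942). Ikzf3 insertions lay at -7.38 points from the middle (SD 18.7, n = 23 PB tumours, permutation p = 0.0716, adjusted p = 0.844). Ikzf2 insertions were at -0.34 (SD 22.3, n = 17 PB tumours, permutation p = 0.948, adjusted p = 0.998). Of 2017 genes hit in at least 10 PB tumours, 0 (0%) were called by the permutation test, with 119 at an unadjusted p below 0.05. A shift of the family in reads or strand was thus not detectable at this number of insertions.

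A few insertions stood far above the others. PB tumour 20, a mesenteric mass, had an Ikzf3 intron 7 insertion with 3096 reads, or 2.08% of its kept reads, the third highest of 9437 insertions. PB tumour 24, a mesenteric lymph node, had an Ikzf1 insertion with 3886 reads, or 2.21%, which ranked 12 of 5796. It lay at 11699957 to 11699960, at the end of intron 1 just ahead of the exon with the start codon, on the opposite strand. PB tumour 29, a thoracic lymph node, had 939 reads at the third Ikzf3 site printed above, ranking 42, where 2 further PB tumours were also hit. PB tumour 11 had 1014 reads in exon 8 of Ikzf3, ranking 91, and PB tumour 12 had 83 reads at the first Ikzf1 intron 4 site printed above, ranking 95. An Ikzf1 insertion of 1229 reads belonged to the deep PB tumour 3. In PB tumours 1 family insertion was thus among the 10 most covered of its tumour and 5 were among the 100 most covered, 2 in Ikzf1 and 3 in Ikzf3. The 1 insertion among the 10 most covered was 0.47% of the 212 family insertions of PB tumours, beside 0.19% of all kept insertions of PB tumours. The 5 were 2.36% of the 212 family insertions of PB tumours, near the 1.93% of all kept insertions of PB tumours that were among the 100 most covered.

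**Figure D4:**
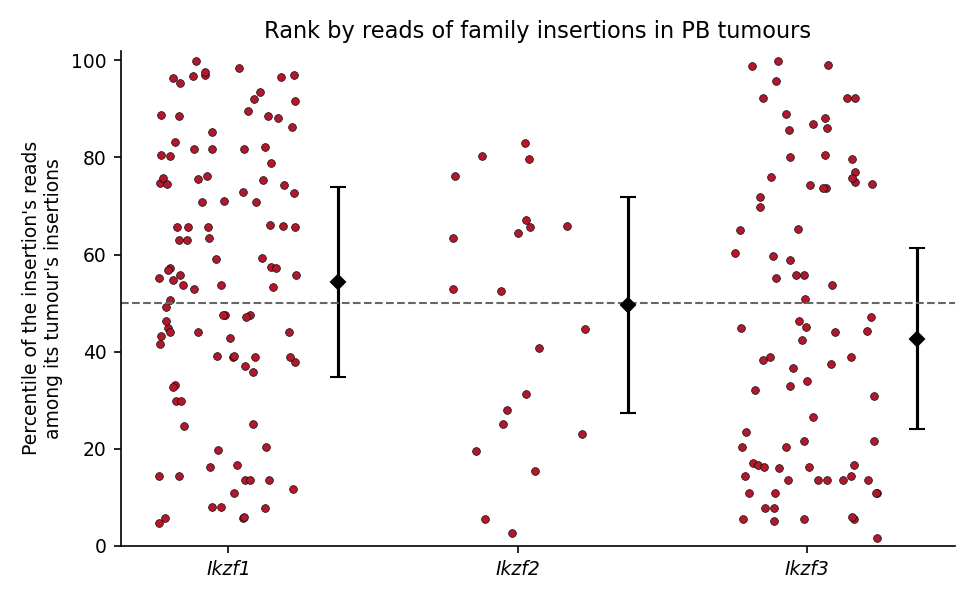
Percentile of each family insertion by reads among all kept insertions of its PB tumour (y axis) for Ikzf1, Ikzf2 and Ikzf3 (x axis). Points are insertions, diamonds and bars are the mean and SD over tumours, and the dashed line is the middle. Insertions span the whole range, and the means lie at 4.36, -0.34 and -7.38 points from 50.

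In SB mice the family had 12 insertions in 6 of 11 tumours and 11 insertions in 7 of 11 tails. Ikzf1 had 5 insertions in 4 of 11 SB tumours, 2 in SB tumour 6 and 1 each in SB tumours 3, 10 and 11, and 2 insertions in 2 of 11 SB tails. The rates were 0.0932 ± 0.147 and 0.0401 ± 0.0893 (SD, n = 11 each) per 1000. Without the minimum number of insertions the log2 fold change was 1.06 (edgeR, adjusted p = 0.427). The best covered of these was in intron 3 in the spleen of SB tumour 6, on the gene strand, with 159 reads and rank 45 of 4750. Of the 5 SB tumour insertions 4 lay in intron 3 and 1 in intron 1.

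Ikzf3 had 2 insertions in 2 SB tumours, with 4 and 10 reads, and 4 insertions in 4 SB tails, a log2 fold change of -0.55 without the minimum (edgeR, adjusted p = 0.712). Ikzf2 had 5 insertions in 3 SB tumours and 5 in 4 SB tails, a log2 fold change of 0.14 (edgeR, adjusted p = 0.938) that turned to -0.045 with TMM scaling and -0.11 with DESeq2. It was the only member with enough insertions for the SB fit, in which 0.801% of 1124 genes were called. All 5 Ikzf2 insertions of the 3 SB tumours were on the opposite strand, and 4 of the 5 of the 4 SB tails on the gene strand. This contrast of strands was not tested. Against the share of TA sites, Ikzf1 was at 3.02 times the expectation in SB tumours and 1.09 in SB tails, Ikzf3 at 1.34 and 2.44. Ikzf4 and Ikzf5 had 0 insertions under their names in the 22 SB samples, where the sites gave expectations of 0.194 to 0.483 in each group. The RefSeq body of Ikzf5, whose sites gave its expectations, held 1 insertion of an SB tumour and 1 of an SB tail, listed under Fgfr2.

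The difference between tumour and tail was then set against itself in the PB and SB mice. For Ikzf3 it was greater in PB by 4.06 on the log2 scale, with an unadjusted p = 0.00176 and an adjusted p = 0.301 in the edgeR fit. The adjusted p of Ikzf3 ran from 0.110 to 1.0 over the alternatives. For Ikzf1 the difference was greater by 1.86, given without a test, and for Ikzf2 it was at -0.21 (edgeR, adjusted p = 1.0), or 0.10 with TMM scaling and 0.24 with DESeq2. Neither Ikzf2 nor Ikzf3 passed, nor did any other of the 4292 genes (0%), with 391 at an unadjusted p below 0.05 and 0 called by DESeq2. With 11 SB tumours and few insertions per gene, a difference between the systems in Ikzf3 was not detectable at this depth after adjustment. Transposase and cohort differ together between the PB and SB mice and cannot be told apart, and the Blm genotype of the PB mice was not taken from the sources used here.

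Genes linked to the Ikaros proteins were looked at in a list of 39. It held 14 NuRD subunits, 7 other corepressor genes, 5 genes of the cereblon ligase and 13 lymphoid target genes of Ikaros. Of the 39, 30 were hit in PB tumours and 10 had enough insertions for the PB fit. Of these 10, 0 were called higher and 0 lower by edgeR, and 4 had an unadjusted p below 0.05, as did 652 of the 3306 genes tested (19.7%). The 4 were Foxo1, a transcription factor of B cell development, with a log2 fold change of 1.95 (adjusted p = 0.0632), Sin3a, a corepressor scaffold, with 1.90 (adjusted p = 0.129), Ccnd3, which encodes cyclin D3, with 1.88 (adjusted p = 0.103), and Ncor1, a nuclear corepressor, with 1.35 (adjusted p = 0.192). These 4 were picked after their values were seen, and Foxo1 and Ccnd3 were in the list as target genes. DESeq2 gave 1 call, Foxo1, at an adjusted p = 0.0267, beside 86 calls among the 871 genes to which it gave an adjusted p. The 4 tested NuRD subunits had a median log2 fold change of 0.72, and the 10 genes one of 0.88, beside 0.20 over all genes tested. All 5 genes of the cereblon ligase stayed below the minimum. In SB mice 1 gene of the list, Ncor1, could be tested, with a log2 fold change of -0.00085 (edgeR, adjusted p = 1.0).

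The genes most like Ikzf1 in their rate over the 30 PB tumours, among 2012 genes hit in at least 10 of them, with genes known to lie within 1 Mb left out, were Wdr20a (Spearman's rho = 0.716), H13 (0.599), which encodes a signal peptide peptidase, Cmss1 (0.588), Mllt3 (0.586), known as a fusion partner of KMT2A in leukaemia, and Ubr3 (0.581), a ubiquitin ligase of the N-degron family. The median gene had a rho of 0.0807. Wdr20a, H13 and Ubr3 had only 12 to 18 insertions each, and all rates share the total of the same tumour.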

How the data were processed

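The deposited table lists transposon insertions with read counts that the authors made by splinkerette amplification and sequencing of transposon junctions, mapped to mm10 per the labels, with a minimum of 2 reads. The meaning of its strand column is not given further, and 1 further column of per-sample values (scaled coverage) was not used. The aligner is not given in the sources used here. Each line was placed at a TTAA (PB) or TA (SB) motif within 5 bases, lines of 1 sample and position were joined, and chromosome 14 (the densest in insertions, taken as the transposon donor) and the sex chromosomes were left out. Of the 385883 lines, 1824 on the other chromosomes had no motif and were left out. Genes are those of the table, and gene bodies, exons and sequences those of RefSeq for the GRCm38 assembly (mm10). The 5 family members, the list of linked genes and the tests were chosen with earlier results of these data known.

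Insertions per gene and sample were tested with edgeR 4.0.16 (R 4.3.3, quasi-likelihood, library size the kept insertions, genes with at least 10 insertions, Benjamini-Hochberg). Reads and strand were tested by sign-flip permutation with 100000 resamples over tumours. DESeq2 1.42.0, TMM, other filters, Fisher's exact test, subsets by name form and leaving out each sample were alternatives. The scripts were tested on simulated data. Each sample came from a mouse of its own by its name, and p-values measure the spread between these samples. Reads were not counted as molecules. The naming rule took the 5 members, list genes with an adjusted p below 0.05, of which there were 0, and the 5 genes most like Ikzf1. The 4 list genes with an unadjusted p below 0.05 were named in addition, after their values were seen.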

Additional observations from a re-analysis of the deposited data

How the results depend on the processing

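The call of Ikzf3 as higher in PB tumours than in tails was kept under TMM factors, DESeq2, no minimum of insertions, at least 10 reads, gene bodies by position, lines as deposited, presence per sample (Fisher's exact test, adjusted p = 0.0390), separated names and without shared positions, and was lost within joined names, where 0 of the members other than Ikzf1 were called. Leaving out each of the 42 PB samples in turn kept the count at 1 throughout (log2 fold change 3.41 to 4.36, and 2.79 to 3.87 for Ikzf1). In SB mice the count stayed at 0 in every alternative, also in the 15 of 22 settings that left out a sample and still allowed the test. No fit within separated names was possible for SB, which has no such tumours, and at least 10 reads left no member to test in SB. The interaction had 0 calls of Ikzf2 or Ikzf3 in every alternative, and 1 call over all genes with no minimum and at 10 or more reads.

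Fold changes of Ikzf2 had no stable sign. In PB it was 0.15 with TMM, 0.21 with DESeq2 and 0.71 by presence (all log2), and -0.19 to 0.41 without single samples. In SB it was -0.045 with TMM, -0.11 with DESeq2 and -0.36 by presence, and -0.025 to 0.28 without single samples. In the interaction it was 0.10 with TMM and 0.24 with DESeq2. The cause was not tested.

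The mean rank of Ikzf1 insertions was 2.45 to 6.47 points above the middle without single PB tumours, 0.854 at 10 or more reads and 1.44 without shared positions. With the highest instead of the mean rank in each tumour it was 25.6 (adjusted p = 0.00761), Ikzf2 was at 3.57 and Ikzf3 at 14.4, where by construction a tumour with several insertions lies above the middle. The Ikzf2 rank was at 5.71 within separated names and -2.43 to 1.70 without single tumours, and the Ikzf3 rank -8.79 to -5.52, with an unadjusted permutation p below 0.05 without PB tumour 10, 21, 24 or 29. The Ikzf3 rank was -11.8 without shared positions (permutation p = 0.0191, adjusted p = 0.828) and -8.97 within joined names (permutation p = 0.0469, adjusted p = 0.733). The strand shift of Ikzf1 was 1.45 to 6.0 points without single tumours, -2.37 at 10 or more reads and -3.07 without shared positions. That of Ikzf3 was 0.56 within separated names, 1.19 without shared positions and -3.88 to 0.67 without single tumours, and that of Ikzf2 was -13.6 within joined names. Counted by presence, Ikzf1 was hit in 3.69 times the expected number of PB tumours, a ratio bounded by the 30 tumours. The list of linked genes had 1 call (Foxo1, a target gene) with DESeq2.

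The number of called genes in PB was 147 and ranged over settings with all samples from 7 (Fisher's exact test) to 171 (TMM), with 71 without the minimum, 86 with DESeq2, 110 at 10 or more reads and 124 without shared positions, and was 33 and 28 within joined and separated names. With TMM 126 of 171 calls were higher in tumours and with DESeq2 66 of 86, against 71 of 147. In SB 9 genes were called, with 8 by TMM, 7 without the minimum, 2 by DESeq2 and 1 by presence. No paired analysis was possible because replicate numbers only follow the order of the samples and no name joins a tumour and a tail of 1 mouse. Few insertions per gene limit the precision: a member with 10 insertions over 22 samples allows no firm statement.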

Other observations

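Just outside the genes, the 10 kb downstream of Ikzf1 held 7 insertions of PB tumours and the 10 kb upstream 5, with 0 in the PB tails and 0 in SB samples. The 10 kb downstream of Ikzf3 held 7 insertions of PB tumours and 0 of PB tails, and the 10 kb upstream 3 of PB tumours and 1 of an SB tumour. For Ikzf2 the flanks held 2 and 2 of PB tumours, with 1 of a PB tail downstream and 1 of an SB tail upstream. Downstream of Ikzf4, a gene with 1 insertion of its own, there were 5 insertions of PB tumours and 0 in the other groups. Within the RefSeq body of Ikzf5 lay 3 insertions of PB tumours, 1 of an SB tumour and 1 of an SB tail, which the table lists under Fgfr2, a growth factor receptor gene. They are not counted among the family insertions above. None of these counts was tested.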
